A study of Mus musculus with 7 samples.

Results

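Glutathione S-transferases were followed through transcripts of 10 genes, Gstp1, Gstp2, Gsta4, Gstm1, Gstm2, Gstm5, Gsto1, Gstt1, Mgst1 and Mgst3, out of the 29267 genes in each table. These members were chosen by symbol with the values of these libraries already known, so their levels are given as a description and no test is made on them. All 10 were found among the gene identifiers, and another 16 genes of the same enzyme families were read beside them. The series holds 7 bulk RNA sequencing libraries, 1 a group and without replicates. OG2 mouse embryonic fibroblasts, which carry egfp under the Oct4 promoter with its distal enhancer (GOF18ΔPE), were infected with retroviruses for Oct4, Sox2, Klf4 and c-Myc. They were reprogrammed in serum-containing mES medium or in serum-free 5C medium. Both media contained LIF and vitamin C, and 5C medium also contained N2 and bFGF. Cells were then sorted late in reprogramming by the reporter, which gave mES-Oct4GFP+ and mES-Oct4GFP- from the former and 5C-Oct4GFP+ and 5C-Oct4GFP- from the latter, all labelled passage 0. 5C-Oct4GFP+ cells were also converted in a medium with LIF, CHIR99021 and PD0325901, which gave 5C-Oct4GFP+ (naive), or in primed medium, which gave 5C-Oct4GFP+ (primed). R1 ESCs-primed, from the R1 embryonic stem cell line, were brought to the primed state on MEF feeders in primed medium and served as reference for the primed library. They were then kept on FBS-coated plates in that medium with CHIR99021 and IWR-1 in place of bFGF and activin A. The last 3 libraries were labelled passage 20, so passage and conversion medium cannot be told apart when they are set against 5C-Oct4GFP+.

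Glutathione S-transferases join the tripeptide glutathione to electrophiles, such as drugs, carcinogens and the aldehydes and hydroperoxides that oxidation of lipids leaves behind. The cytosolic enzymes fall into classes named alpha, mu, pi, theta, omega, kappa and zeta, and a separate group (Mgst) is embedded in membranes. Many of the genes are known targets of the transcription factor NRF2, which is released from KEAP1 under oxidative or electrophilic stress.

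Library totals were 6108252 to 11496615 expected counts, and for a median-length gene 1 count corresponded to 0.0950 to 0.181 TPM (transcripts scaled to a common total and to transcript length). Intervals are exact and cover counting error only, since no group had a second library. The labels were checked against marker genes. Summed TPM of the 8 pluripotency markers was 5357 (mES medium) and 7419 (5C medium) in the Oct4GFP+ libraries, against 194 and 500 in the Oct4GFP- libraries, and it was 5342 in naive, 1559 in primed and 1725 in R1 ESCs-primed cells. Dppa5a alone gave 3754.04 (mES medium) and 4714.10 TPM (5C medium) of the Oct4GFP+ sums, and 0.87 TPM in primed cells. In mES medium 7 of the 8 were at least 2-fold higher in Oct4GFP+ cells. The other, Lin28a, was lower, at 24.24 against 75.92 TPM. In 5C medium 7 were higher and 0 lower. The 6 naive markers summed to 834 TPM in the naive library against 7.08 in the primed one, and the 7 primed markers to 1332 TPM in primed cells against 41.1 in naive cells. The 12 fibroblast markers summed to 178 TPM in mES-Oct4GFP+ and 651 TPM in mES-Oct4GFP-, and to 52.0 TPM (Oct4GFP+) and 398 TPM (Oct4GFP-) in 5C medium. Fbln1 alone gave 162.13 TPM of the sum in mES-Oct4GFP+, and without it the 11 others summed to 15.5 and 601 TPM in mES medium and to 11.4 and 282 TPM in 5C medium. In these bulk libraries, fewer cells of a type and less RNA per cell cannot be told apart.

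The summed level of the 10 members was 1480 TPM in mES-Oct4GFP+ and 3263 TPM in mES-Oct4GFP-. In 5C medium it was 2408 TPM (Oct4GFP+) and 2827 TPM (Oct4GFP-), then 1670 in naive, 485 in primed and 688 in R1 ESCs-primed cells. The 2 primed libraries therefore held the least. With the other 16 genes added, the totals ran from 572.9 to 3462.4 TPM, and the members made up 84.7% to 94.2% of them. Gsta4 and the Gstp pair together gave 84.3% of the members' TPM in mES-Oct4GFP+ and 86.5% in naive cells, but 40.9% in mES-Oct4GFP-, where Gsto1 alone gave 40.2%. All 10 members reached 1 TPM in 5 libraries, whereas mES-Oct4GFP+ and naive cells each had 8 such members. In the plot of levels by gene and library, Gsta4 varied least, over 1.76 on the log2(TPM + 1) scale, and Mgst1 varied most, over 8.69.

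**Figure D1:**
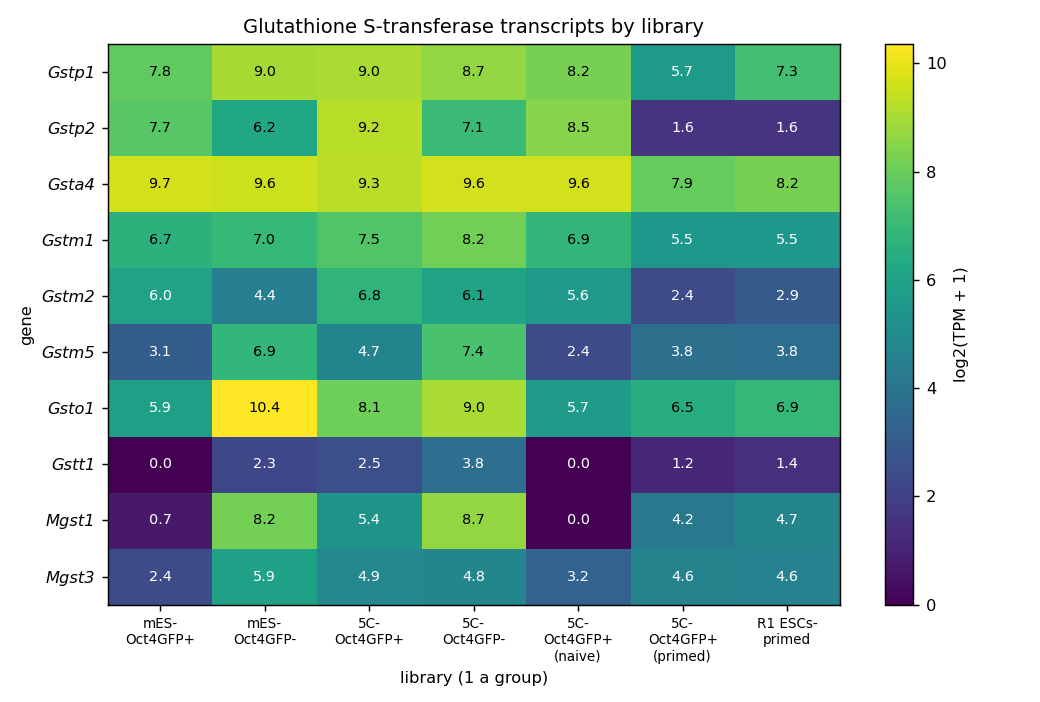
Level of each member as log2(TPM + 1), by gene (rows) and library (columns, 1 library a group); the number in each cell is the plotted value. Gsta4 is high in every column, from 7.9 to 9.7, and Gstt1 and Mgst1 are at or below 0.7 in mES-Oct4GFP+ and in naive cells.

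**Figure D2:**
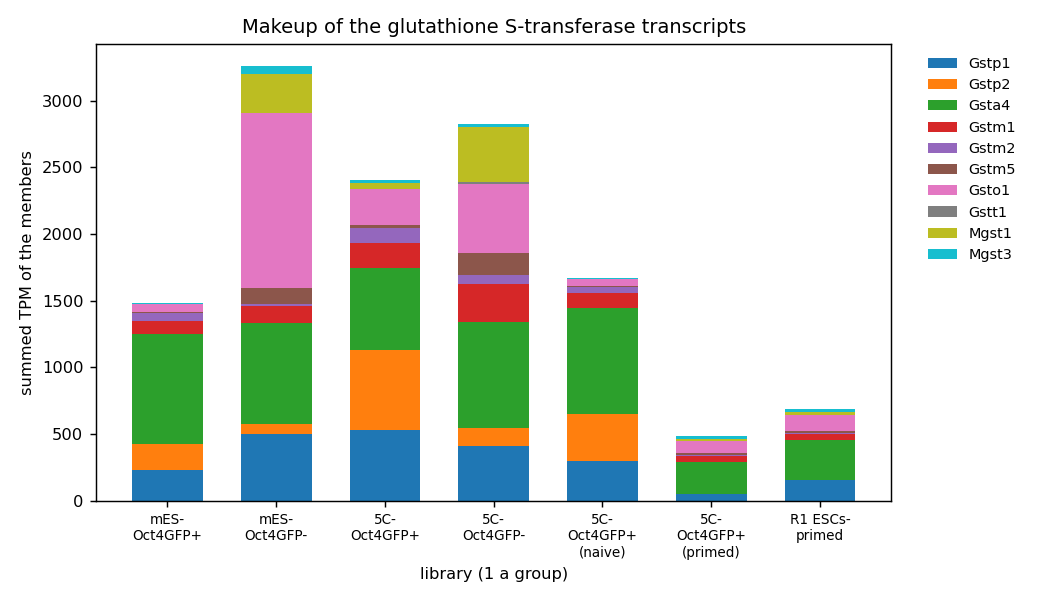
Summed TPM of the 10 members by library, each colour 1 gene. The bars reach 3263 TPM in mES-Oct4GFP-, with Gsto1 as the widest band, and 485 TPM in primed cells.

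Gsta4, the alpha class enzyme known for conjugating hydroxynonenal and related products of lipid peroxidation, was the most abundant single gene of the members in 6 of the 7 libraries, all but mES-Oct4GFP-, where Gsto1 was higher. Its level was 820.10 TPM in mES-Oct4GFP+, 795.88 in 5C-Oct4GFP-, 793.69 in naive cells, 760.99 in mES-Oct4GFP- and 619.03 in 5C-Oct4GFP+. Each of the first 3 did not differ from the next in that order beyond counting error, whereas mES-Oct4GFP+ was 1.08 times mES-Oct4GFP- (1.02 to 1.14) and 5C-Oct4GFP+ was below all 4. R1 ESCs-primed held 299.46 TPM and primed cells 241.21 TPM, below every other library. The gene lies at chr9:78182774-78209349 on the plus strand of GRCm38.

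Gstp1 and Gstp2 encode the pi class enzymes and lie side by side on the minus strand of chromosome 19, Gstp1 at chr19:4035407-4037985 and Gstp2 at chr19:4040285-4046023. Their coding sequences have 630 bases each and differ at 12 positions, an identity of 98.1%. The start of both is shown because reads can be assigned to one copy only where the letters differ. The first 60 coding bases, which span exons 1 to 3 at chr19:4037374-4037863 and chr19:4041668-4042165, hold 6 of the differences, printed in capitals.
Gstp1: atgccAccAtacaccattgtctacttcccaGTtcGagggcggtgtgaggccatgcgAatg
Gstp2: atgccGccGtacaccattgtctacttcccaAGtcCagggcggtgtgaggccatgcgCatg
Of the 557 windows of 74 bases in the coding sequence, the fragment length the tables imply, 364 (65.4%) contained no difference. Reads from such stretches were shared out by estimation. The deposited counts of each copy were fractional in all 7 libraries, while the summed count of the pair was whole in all 7. Values of each copy are therefore less certain than their sum.

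The Gstp sum was 1129.45 TPM in 5C-Oct4GFP+, 650.07 in naive cells, 572.20 in the mES-Oct4GFP- library, 545.41 in the 5C-Oct4GFP- library and 427.14 in mES-Oct4GFP+. R1 ESCs-primed had 155.86 TPM and primed cells 51.58 TPM. 5C-Oct4GFP+ stood highest and both primed libraries lowest. mES-Oct4GFP- and 5C-Oct4GFP- did not differ beyond counting error. Gstp1 was at 527.10, 501.49, 411.46, 297.10, 225.63, 153.82 and 49.62 TPM in 5C-Oct4GFP+, mES-Oct4GFP-, 5C-Oct4GFP-, naive, mES-Oct4GFP+, R1 ESCs-primed and primed cells. Its highest 2 libraries were not told apart. Gstp2 was at 602.35 TPM in 5C-Oct4GFP+, 352.97 in naive cells, 201.51 in the mES-Oct4GFP+ library, 133.95 in the 5C-Oct4GFP- library and 70.71 in mES-Oct4GFP-. In primed cells it was at 1.96 TPM, from 9 rounded counts, and in R1 ESCs-primed at 2.04 TPM, from 5.

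The 2 copies thus had different orders across libraries. Gstp2 made up 47.2% of the sum in mES-Oct4GFP+, while it had 53.3% in 5C-Oct4GFP+ and 54.3% in naive cells. It made up 12.4% in mES-Oct4GFP-, 24.6% in 5C-Oct4GFP-, 3.80% in primed cells and 1.31% in R1 ESCs-primed. The plot of both copies shows the 3 libraries with a near-even split beside 4 in which Gstp1 led. Gstp3, the third gene of the cluster at chr19:4057477-4059569, followed Gstp2 in this respect. It was at 6.87, 11.17 and 10.34 TPM in mES-Oct4GFP+, 5C-Oct4GFP+ and naive cells, at 0.37 and 1.15 TPM in mES-Oct4GFP- and 5C-Oct4GFP-, and listed at 0 in both primed libraries.

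**Figure D3:**
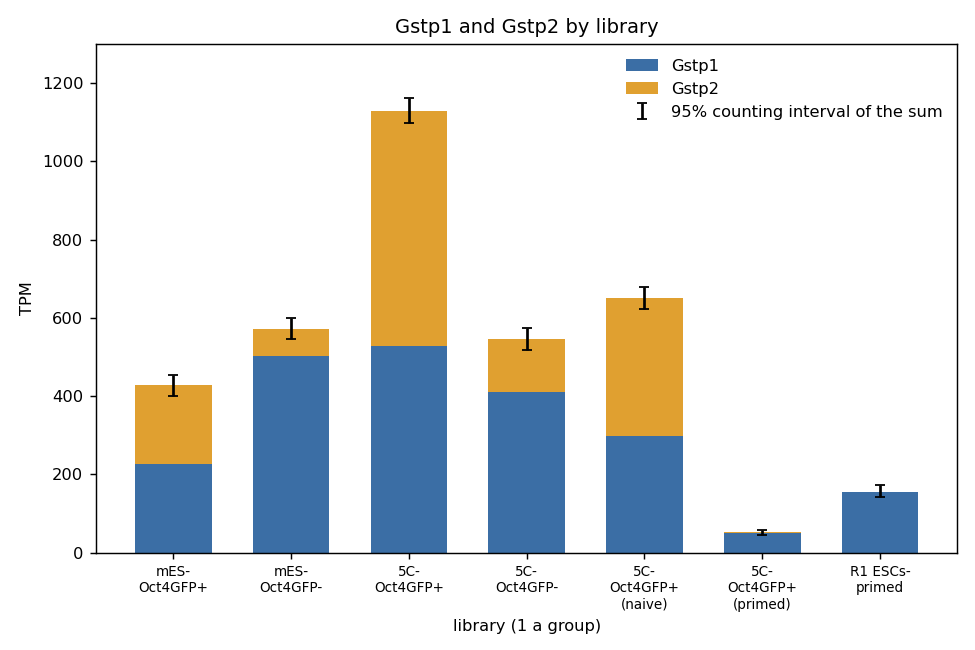
TPM of Gstp1 (blue) and Gstp2 (orange) stacked by library, 1 library a group; the bar's end is their sum and the whiskers its exact 95% counting interval. The sum is 1129.45 TPM in 5C-Oct4GFP+, and the orange part is 53.3% of it there and 1.31% in R1 ESCs-primed.

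Promoter sequences, taken from RefSeq on GRCm38.p6 as 250 bases before and 50 after each start, were found for 9 of the 10 members, as 11 windows. Gsta4 had no window and was not searched. They were searched on both strands for TGACNNNGC, and for TGAGTCA or TGACTCA, the AP-1 element. The first is a form of the core of the antioxidant response element that NRF2 is known to bind. Other forms of that core were not searched. Over all 32851 promoters of the same length, 12.4% held the first and 5.2% the second. TGACNNNGC occurred in the windows of Gstm5 and Mgst1, and the AP-1 element in those of Gstp1, Gstp2 and Gstm5. Windows without TGACNNNGC, those of Gstp1 and Gstp2 included, are therefore not shown to lack an antioxidant response element. Whether the AP-1 letters of Gstp1 and Gstp2 are also part of such an element was not tested. The pair of Gstp promoters is shown because they share 34 identical bases around the AP-1 letters, in capitals, at chr19:4037960-4038066 and chr19:4042284-4042390 on the minus strand.
Gstp1: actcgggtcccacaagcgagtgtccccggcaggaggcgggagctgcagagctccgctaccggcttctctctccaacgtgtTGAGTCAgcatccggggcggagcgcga
Gstp2: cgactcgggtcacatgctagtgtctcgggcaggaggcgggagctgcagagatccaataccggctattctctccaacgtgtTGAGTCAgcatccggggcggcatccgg
The letters begin 74 bases before the RefSeq start of Gstp1 and 89 bases before that of Gstp2. The gene positions given above are from GENCODE and begin further upstream, so both stretches overlap them. The windows differed in CpG dinucleotides, with 20 in Gstp1 and 12 in Gstp2 against a median of 7 over all promoters. No measurement of binding or methylation was read here, and the matches are a description of the letters.

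The mu class genes lie together on chromosome 3 and are known for conjugating epoxides and other electrophiles. Gstm1, at chr3:108012255-108017973, was at 283.56 TPM in 5C-Oct4GFP-, 186.17 in 5C-Oct4GFP+, 123.05 in mES-Oct4GFP-, 114.76 in naive cells and 100.34 in mES-Oct4GFP+. Primed cells had 45.11 TPM and R1 ESCs-primed 45.17 TPM. The 2 libraries from 5C medium were thus highest, the 2 primed libraries were lowest and equal within counting error, and mES-Oct4GFP- was not told apart from naive cells. Gstm2, at chr3:107981702-107986453, was at 107.87 TPM in 5C-Oct4GFP+, 65.46 in 5C-Oct4GFP-, 61.91 in mES-Oct4GFP+ and 46.99 in naive cells. It was at 20.82 TPM in mES-Oct4GFP-, 6.56 in R1 ESCs-primed and 4.33 in primed cells. As with Gstp2, mES-Oct4GFP- was below mES-Oct4GFP+ and both primed libraries were lowest. Gstm5, at chr3:107895821-107898686, had a different order: 164.42 TPM in 5C-Oct4GFP- and 116.20 in mES-Oct4GFP-, then 24.21 in 5C-Oct4GFP+, 13.16 in primed cells, 12.48 in R1 ESCs-primed, 7.38 in mES-Oct4GFP+ and 4.20 in naive cells. Neighbours among the last 4 did not differ beyond counting error. Counts of Gstm1 were fractional in 7 libraries and those of Gstm5 in 6, so reads shared with related genes were split by estimation. The first exon of Gstm5 is overlapped on the other strand by 4933431E20Rik, which was at 3.74 to 18.82 TPM and was highest in the same 2 Oct4GFP- libraries. The counting is not stated to use strand, so reads of the overlap cannot be told apart.

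Gsto1, the omega class enzyme, is known for thiol transfer and for returning dehydroascorbate to ascorbate. It was at 1312.75 TPM in mES-Oct4GFP-, the highest value of any member in any library. 5C-Oct4GFP- had 520.88 TPM, 5C-Oct4GFP+ 268.57, R1 ESCs-primed 118.60, primed cells 87.62, mES-Oct4GFP+ 58.08 and naive cells 51.40. The last 2 were not told apart. The gene, at chr19:47854970-47864790, lies inside Cfap43 on the opposite strand, and reads of the overlap cannot be told apart here either. Cfap43 was higher in 5C than in mES medium among Oct4GFP+ cells (30.84 against 2.34 TPM) and lower among Oct4GFP- cells (25.25 against 43.78 TPM), the same directions as Gsto1. Its part in the Gsto1 values was not tested.

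Gstt1, the theta class enzyme at chr10:75783813-75798584, was the scarcest member. It had 52 counts (12.64 TPM) in 5C-Oct4GFP-, 26 (4.73 TPM) in 5C-Oct4GFP+, 16 (3.76 TPM) in mES-Oct4GFP-, 8 (1.29 TPM) in primed cells and 6 (1.62 TPM) in R1 ESCs-primed. No count was found in mES-Oct4GFP+, where 3 counts are worth 1.13 TPM and the 95% counting interval reaches 1.39 TPM. None was found in naive cells either, where these values are 0.797 and 0.980 TPM.

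Mgst1, a membrane enzyme of the endoplasmic reticulum and outer mitochondrial membrane with transferase and peroxidase activity, was at 412.60 TPM in 5C-Oct4GFP- and 293.38 in mES-Oct4GFP-. It was at 40.35 TPM in 5C-Oct4GFP+, 25.14 in R1 ESCs-primed and 17.39 in primed cells. mES-Oct4GFP+ held 1 count (0.62 TPM) and naive cells none, which allows up to 0.840 TPM. The order was that of Gstm5 but for the 2 primed libraries, which were not told apart for either gene. The gene lies at chr6:138140316-138156755. Among the members searched, Gstm5 and Mgst1 had TGACNNNGC in a promoter, so both stretches are shown with these letters in capitals. The letters are on the reverse strand in Mgst1, and Gstm5 is shown also with its AP-1 letters. The stretches lie at chr3:107895658-107895840 and chr6:138140461-138140489 on the plus strand. Both reach into the gene positions given, which begin before the RefSeq starts used for the windows.
Gstm5: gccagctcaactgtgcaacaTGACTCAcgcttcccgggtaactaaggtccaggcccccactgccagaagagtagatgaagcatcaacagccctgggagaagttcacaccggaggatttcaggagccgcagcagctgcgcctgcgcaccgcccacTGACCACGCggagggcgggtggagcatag
Mgst1: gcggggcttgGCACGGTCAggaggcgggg
Mgst3, a membrane enzyme known for leukotriene synthesis and peroxidase activity, at chr1:167371966-167393841, was at 60.00 TPM in mES-Oct4GFP-. It was at 27.89 in 5C-Oct4GFP+, 26.09 in 5C-Oct4GFP-, 23.60 in primed cells and 23.36 in R1 ESCs-primed, neighbours that were not told apart. Naive cells had 8.48 TPM and mES-Oct4GFP+ 4.11 TPM.

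The first comparison asked how the medium related to the transcripts of reporter-positive cells. Of the 10 members, 7 had a level at least 2-fold higher in 5C-Oct4GFP+ than mES-Oct4GFP+ on the log2(TPM + 1) scale, and 0 were lower by as much. Among all 15196 genes with at least 1 TPM in either library, 13.7% were higher and 13.5% lower by that amount. The median difference of the members was 1.58 (log2), against -0.06 over all genes. Because the members were chosen with these values known, the counts are descriptive. The Gstp sum was 2.64 times the mES-Oct4GFP+ level (95% counting interval 2.47 to 2.84), Gsto1 4.62 times (4.01 to 5.36) and Mgst3 6.79 times (3.93 to 12.7). Mgst1 stood at 132 counts against 1, a ratio of 65.1 with an interval of 11.5 to 2596. Gstt1, with no count in mES-Oct4GFP+, was 4.18-fold higher against the level of 3 counts there, and the interval of its ratio began at 3.16. Gstm5 was 3.28 times as high (1.96 to 5.67). Gstm1 and Gstm2 stayed under 2-fold, at 1.86 (1.65 to 2.08) and 1.74 (1.48 to 2.05). Gsta4 was the member with a lower level in 5C medium, at 0.755 times (0.716 to 0.796). The fibroblast markers, which mark the starting cells, summed to 52.0 TPM in 5C-Oct4GFP+ against 178 TPM, or 11.4 against 15.5 TPM without Fbln1, with 4 of 12 at 1 TPM or more against 6 of 12.

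In reporter-negative cells the members were divided. Relative to mES-Oct4GFP-, 5C-Oct4GFP- had 3 members that were at least 2-fold higher and 2 that were lower, beside 9.68% higher and 10.1% lower over 15859 genes. The median difference was 0.49, against 0.03 over all genes. The higher ones were Gstm1 at 2.30 times (2.10 to 2.53), Gstm2 at 3.14 times (2.47 to 4.03) and Gstt1 at 3.36 times (1.89 to 6.30). The lower ones were Gsto1 at 0.397 times (0.378 to 0.416) and Mgst3 at 0.435 times (0.346 to 0.543). The Gstp sum was at 0.953 times (0.890 to 1.02) and Gsta4 at 1.05 times (0.994 to 1.10), intervals that include no difference. Fibroblast markers summed to 398 against 651 TPM in this pair, or 282 against 601 TPM without Fbln1, and 11 and 12 of the 12 reached 1 TPM. Of these 12, 7 were at least 2-fold lower in 5C-Oct4GFP- and 2 higher. The 2 higher ones were Thy1, at 53.29 against 8.73 TPM, and Fbln1, at 116.10 against 49.73 TPM. Markers of other cell types summed to 97.7 against 158 TPM, and of 9 measured 7 were at least 2-fold lower in 5C-Oct4GFP-, among them the endodermal factor Gata4 at 2.48 against 32.99 TPM. The basal keratin Krt5 was the 1 higher marker, at 43.81 against 2.41 TPM, and Krt14 was at 44.83 against 75.35 TPM. Their part in these differences was not tested. The plot of 5C to mES ratios sets both sorted fractions side by side. Gsto1, Mgst3 and Gstp1 lay on opposite sides of 1 in them, with both intervals off 1. Gsta4 and the Gstp sum also lay on opposite sides, but with an Oct4GFP- interval that includes 1.

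**Figure D4:**
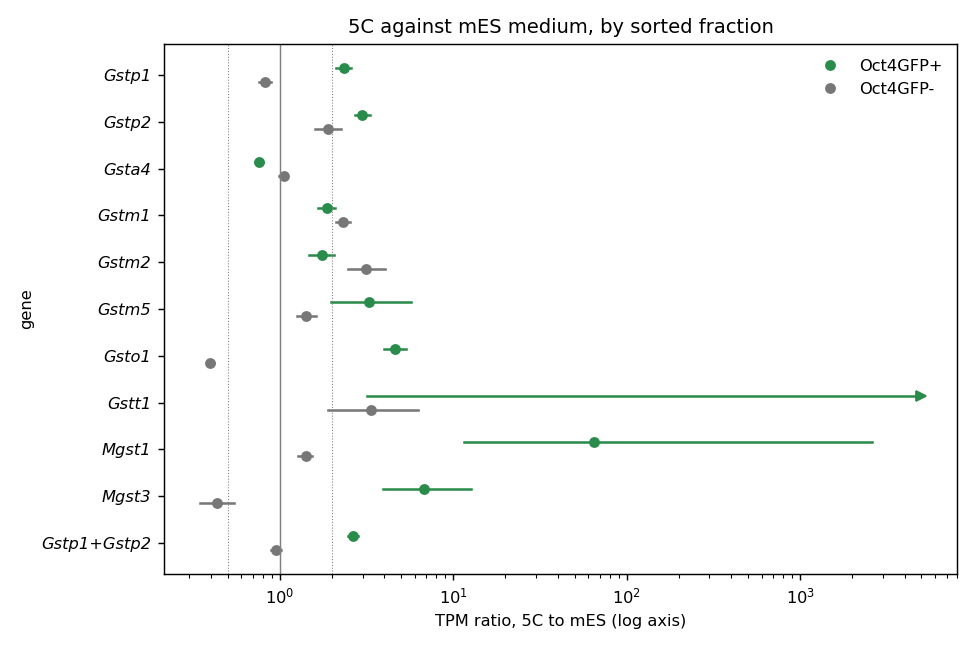
TPM ratio of 5C to mES medium (log axis) for each member and the Gstp sum, in Oct4GFP+ (green) and Oct4GFP- (grey) cells, 1 library a group. Points are ratios and lines exact 95% counting intervals; the solid line marks 1, dotted lines 2-fold, and the arrow a gene with no count in mES-Oct4GFP+. Gsto1 is at 4.62 in green and 0.397 in grey.

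Sorting by the reporter was then compared within each medium. In mES medium, 2 members were at least 2-fold higher and 6 lower in Oct4GFP+ than in Oct4GFP- cells, beside 17.9% and 28.8% of 16294 genes. The medians were -1.70 for members and -0.15 for all genes. Gstm2 and Gstp2 were higher in mES-Oct4GFP+, 2.97 times (2.31 to 3.85) and 2.85 times (2.42 to 3.37). Higher in mES-Oct4GFP- were Gsto1, 22.6 times (19.7 to 26.0), Gstm5, 15.7 times (9.73 to 26.5), and Mgst3, 14.6 times (8.56 to 27.1). Mgst1 had a ratio of 473 (84.9 to 18760) over its 1 count in mES-Oct4GFP+. Gstt1 was 3.32-fold higher in mES-Oct4GFP- against the 3-count level, and the interval of its ratio began at 2.41. Gstp1 was 2.22 times as high in mES-Oct4GFP- (2.01 to 2.46), a difference of -1.15 that became -0.99 once TPM was rescaled between libraries. The sum of the Gstp pair differed by 1.34 times (1.24 to 1.45).

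The same sort was compared in 5C medium. At least 2-fold higher in 5C-Oct4GFP+ was 1 member and lower were 3, beside 8.45% and 22.6% of 15675 genes, with a median of -0.48 against -0.25 over all genes. Gstp2 was 4.50 times as high in 5C-Oct4GFP+ (4.05 to 5.02). Mgst1 was 10.2 times (8.53 to 12.3), Gstm5 6.79 times (5.55 to 8.36) and Gstt1 2.67 times (1.64 to 4.46) as high in 5C-Oct4GFP-. Gsto1 was 1.94 times as high there (1.82 to 2.07). Mgst3 was at 1.07 times the 5C-Oct4GFP- level in 5C-Oct4GFP+ (0.836 to 1.37). Rescaling by median ratios moved the median of all genes in this pair from -0.25 to -0.04 and turned no member's direction. In both media the fibroblast markers had the larger sum in the Oct4GFP- library (601 against 15.5 and 282 against 11.4 TPM without Fbln1), as Gstm5, Gsto1 and Mgst1 did, and their part in the result was not tested.

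Conversion of 5C-Oct4GFP+ cells to the naive state was accompanied by lower levels of most members. Of the 10, 0 were at least 2-fold higher and 6 lower in naive cells, beside 10% and 17.5% of 14863 genes, with a median of -1.39 against -0.10 over all genes. Against the level of 3 counts in naive cells, Mgst1 was 48.0-fold lower and Gstt1 5.93-fold lower. The intervals of their ratios began at 38.5 and 4.49. Gstm5 was lower by a ratio of 5.76 (3.37 to 10.3), Gsto1 by 5.23 (4.59 to 5.97), Mgst3 by 3.29 (2.32 to 4.75) and Gstm2 by 2.30 (1.97 to 2.70). The Gstp sum was lower by 1.74 (1.65 to 1.83) with the split between copies at 53.3% and 54.3%, and Gsta4 was 1.28 times as high (1.22 to 1.35).

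In primed cells 0 members were at least 2-fold higher than in 5C-Oct4GFP+ and 8 were lower, beside 13.7% and 16.1% of 15067 genes. The members' median was -1.48, against 0.06. Gstp2 was lower by a ratio of 307 (154 to 642), Gstm2 by 24.9 (16.9 to 38.1), Gstp1 by 10.6 (9.24 to 12.3), Gstm1 by 4.13 (3.66 to 4.66) and Gsta4 by 2.57 (2.41 to 2.74). Gstt1, Gsto1 and Mgst1 were lower by 3.67 (1.60 to 9.33), 3.07 (2.79 to 3.37) and 2.32 (1.71 to 3.17). Mgst3 was at 0.846 times (0.674 to 1.06) and Gstm5 at 0.544 times (0.398 to 0.740). Both conversions share the 5C-Oct4GFP+ library, so they are given side by side only. Fibroblast markers without Fbln1 summed to 83.3 TPM in primed and 16.7 TPM in naive cells, against 11.4 TPM in 5C-Oct4GFP+ (116, 160 and 52.0 TPM with it), and 10 of 12 measured were at least 2-fold higher in primed and 2 of 7 in naive cells. Their part in the members' differences was not tested. The primed library was set against R1 ESCs-primed, a line of other origin. There, 0 members were at least 2-fold higher and 1 was lower, beside 2.30% and 5.09% of 14600 genes, and the medians were -0.25 and -0.03. The lower member was Gstp1, at 0.323 times (0.271 to 0.381). Gstm1 was at 0.999 times (0.838 to 1.19), Gstm5 at 1.05 times (0.704 to 1.61) and Mgst3 at 1.01 times (0.775 to 1.32). The 12 fibroblast markers summed to 116 TPM in primed cells and 277 TPM in R1 ESCs-primed, and their part in the Gstp1 difference was not tested.

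**Figure D5:**
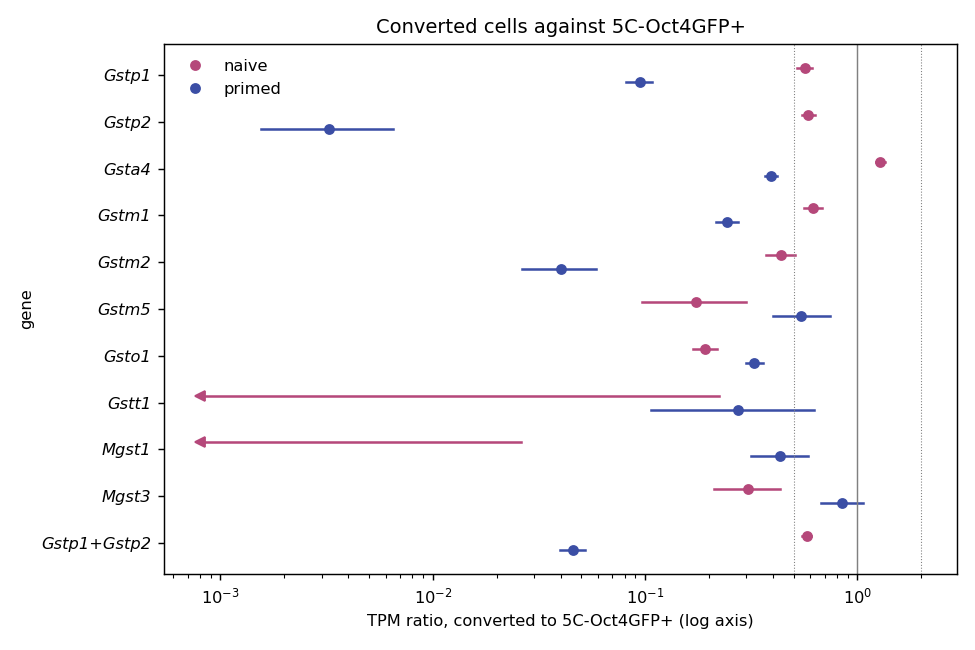
TPM ratio of naive (pink) and primed (blue) cells to 5C-Oct4GFP+ (log axis), 1 library a group; points are ratios, lines exact 95% counting intervals, and arrows genes with no count in naive cells. Gstp2 is at 0.586 in naive and 0.00325 in primed cells, while Mgst3 is at 0.304 and 0.846.

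The other 16 family genes were scarcer, and 10 of them reached 10 TPM in some library. In 5C-Oct4GFP+ against mES-Oct4GFP+, 13 were measured above 1 TPM, 6 of them at least 2-fold higher and 2 lower, beside 13.7% and 13.5% of all genes. In the Oct4GFP- pair 2 of 13 were higher and 1 lower, beside 9.68% and 10.1%. Against 5C-Oct4GFP+, 1 of 12 was higher and 6 lower in naive cells, beside 10% and 17.5%. In primed cells 0 of 12 were higher and 6 lower, beside 13.7% and 16.1%. Gstk1, the kappa class enzyme of mitochondria and peroxisomes, was at 0.70 TPM in mES-Oct4GFP+ and 0.99 in naive cells but at 13.90 to 21.17 TPM in the other 5 libraries. The members Gstm5, Gsto1, Gstt1, Mgst1 and Mgst3 were also lowest in those 2 libraries, with Gstm5 and Gstt1 not told apart from the library next in order. Elsewhere these members varied more than Gstk1 in part, Mgst1 from 17.39 to 412.60 TPM. Gstt2 was likewise lowest in mES-Oct4GFP+ and naive cells, at 1.85 and 2.94 TPM, against 8.95 to 28.66 TPM elsewhere. Gstm3 was at 25.94, 16.34 and 17.94 TPM in mES-Oct4GFP+, 5C-Oct4GFP+ and naive cells, and between 0.20 and 1.5 TPM in the other 4. Gsta3 was highest in naive cells, 51.12 TPM, and lowest in primed cells, 0.80 TPM. Gstt3 (4.28 to 47.27 TPM) and Gstm4 (1.89 to 22.92 TPM) were highest in mES-Oct4GFP-, Gstm7 (0.46 to 17.97 TPM) in 5C-Oct4GFP- and Gstm6 (3.89 to 16.43 TPM) in 5C-Oct4GFP+. Gstz1, an isomerase of tyrosine breakdown, kept to 16.65 to 33.73 TPM.

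Lists of related genes were read against the shares over all genes given above, 13.7% higher and 13.5% lower in the Oct4GFP+ pair and 9.68% and 10.1% in the Oct4GFP- pair, and nothing particular to a list is drawn from its counts. Of 14 measured genes of glutathione synthesis and recycling, 3 were at least 2-fold higher and 2 lower in 5C-Oct4GFP+ against mES-Oct4GFP+, and 2 and 1 of 15 in the Oct4GFP- pair. Gclm, the modifier subunit of the rate-limiting glutamate-cysteine ligase, was at 311.34 TPM (5C) and 97.65 TPM (mES) in Oct4GFP+ cells, at 125.28 TPM (5C) and 79.47 TPM (mES) in Oct4GFP- cells, and at 150.17 in naive, 185.08 in primed and 241.53 in R1 ESCs-primed cells. Gclc, its catalytic subunit, ranged only from 24.69 to 70.14 TPM. Gss, which completes the tripeptide, was at 20.39 TPM in 5C-Oct4GFP+ and 33.02 in 5C-Oct4GFP-, against 124.46 and 94.67 TPM in the mES libraries and 170.87 TPM in naive cells, and at 24.00 TPM in primed cells and 22.04 TPM in R1 ESCs-primed. Its ratio of 5C to mES was 0.164 (0.140 to 0.191) in Oct4GFP+ and 0.349 (0.301 to 0.404) in Oct4GFP- cells. Ggt1, which degrades extracellular glutathione, was at 26.81 TPM in mES-Oct4GFP+ and 27.55 in naive cells and at 1.45 to 6.06 TPM elsewhere. Cbs, of the transsulfuration route to cysteine, was at 40.43 and 71.33 TPM in 5C-Oct4GFP+ and mES-Oct4GFP+ and at 14.80 and 4.77 TPM in the Oct4GFP- libraries. Gsr, which reduces oxidised glutathione, was at 206.05 TPM in 5C-Oct4GFP+ and 184.21 in mES-Oct4GFP+.

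Of 25 genes of the NRF2 pathway, a list that holds no member and shares Gclc, Gclm and Slc7a11 with the previous one, 6 were at least 2-fold higher and 1 lower in the Oct4GFP+ pair (5C against mES), and 1 and 5 in the Oct4GFP- pair. Nfe2l2, which encodes NRF2, was at 57.48 and 54.89 TPM in 5C-Oct4GFP+ and 5C-Oct4GFP-, against 123.04 and 88.68 TPM in the mES libraries, 103.34 in naive, 48.43 in primed and 50.24 in R1 ESCs-primed cells. Keap1 was at 21.44 TPM in 5C-Oct4GFP+ and 41.73 in mES-Oct4GFP+. Nqo1, a quinone reductase and classical NRF2 target, was at 82.15 TPM in 5C-Oct4GFP+ and 62.92 in mES-Oct4GFP+, and at 11.71 in primed cells, its lowest level. Of the small Maf partners of NRF2, Maff and Mafk were lowest in mES-Oct4GFP+ and naive cells, Maff at 1.95 and 1.27 TPM against 17.51 to 114.29 TPM elsewhere and Mafk at 4.40 and 2.95 TPM against 7.86 to 73.34 TPM. Mafg was highest in these libraries, at 88.41 and 73.48 TPM against 43.27 to 63.55 TPM. Me1, a malic enzyme that makes NADPH, was at 149.17 TPM in mES-Oct4GFP- and 50.13 in 5C-Oct4GFP-.

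Among genes of the aryl hydrocarbon receptor pathway, a further regulator of conjugating enzymes, 2 of 6 measured were at least 2-fold higher and 2 lower in the Oct4GFP+ pair, and 0 and 2 in the Oct4GFP- pair. Aldh3a1, an aldehyde dehydrogenase, was at 350.84 TPM in mES-Oct4GFP- and 69.87 in 5C-Oct4GFP-, 6.91 in 5C-Oct4GFP+ and under 1 TPM in the other libraries. Cyp1a1 was at 8.72 TPM in mES-Oct4GFP+ and 11.12 in naive cells and at 0.53 TPM or less elsewhere, and Ahr stayed between 1.5 and 4.55 TPM. Of 7 measured genes of conjugate export and breakdown, 2 were higher and 2 lower in the Oct4GFP+ pair, and 1 and 0 of 8 in the Oct4GFP- pair. Abcc4, an exporter of organic anions, was at 66.31 and 59.76 TPM in the 5C libraries and 20.02 and 28.64 TPM in the mES libraries, and Anpep, a peptidase of the mercapturate route, at 9.06 and 2.0 TPM in 5C-Oct4GFP+ and mES-Oct4GFP+. Abcc3 did not exceed 2.20 TPM. Of 13 glutathione peroxidases and thiol enzymes, 0 were at least 2-fold higher in 5C medium in either fraction, while 2 were lower in Oct4GFP+ and 3 in Oct4GFP- cells. The lower ones included Glrx and Glrx2 in Oct4GFP+ cells, at 49.72 against 103.91 and 55.54 against 130.67 TPM, and the peroxidases Gpx3 and Gpx8 in Oct4GFP- cells, at 30.04 against 129.36 and 13.92 against 37.99 TPM.

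Across the 7 libraries, some members had like patterns on the log2(TPM + 1) scale. These correlations are descriptions over 7 libraries, of which 6 come from the same OG2 fibroblasts and 1 from R1 ESCs. Gstp2 and Gstm2 had a Pearson r of 0.96, Gstm5 and Mgst1 0.95, Gstm5 and Gsto1 0.94, and Gstt1 and Mgst1 0.93. Gstp1 and Gstp2 had 0.80. Outside the family, 4373 genes with at least 10 TPM somewhere and a range of at least 2 on the log2 scale were ranked by likeness. The nearest to the Gstp sum were Apobec3 (0.973), Crlf2 (0.972) and Htatip2 (0.971). Apobec3 was at 236.02 TPM in 5C-Oct4GFP+ and 29.67 TPM in primed cells, its extremes as they were those of the sum. The nearest to Gstm1 were Gabbr1 (0.985), Shisal2b (0.980) and Nmnat2 (0.973). Gabbr1 was at 127.19 TPM in 5C-Oct4GFP- and 23.52 TPM in R1 ESCs-primed.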

How the data were processed

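RNA was extracted with TRIzol, and 7 mRNA sequencing libraries were prepared with a TruSeq RNA kit. The submitters' processing notes name Bowtie, RSEM and mm10; versions are not given in the sources used here. The authors deposited, for each library, RSEM gene tables with expected counts, TPM (scaled by depth and length) and FPKM, and the deposited tables also give gene and effective lengths. Reads that fit several genes were shared out by RSEM's estimation. Symbols were matched for 28756 of 29267 identifiers.

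TPM was compared as log2(TPM + 1), with a pseudocount of 1, over genes with at least 1 TPM in either library; a difference of at least 1 was called. With 1 library per group no test was possible, and no p-value is given. Ratios have exact Clopper-Pearson 95% intervals and levels exact Poisson intervals, after rounding the expected counts. Folds against a count of 0 were taken against the level of 3 counts, and the intervals of such ratios are open-ended. Totals of 6108252 to 11496615 counts set the precision. Intervals cover counting error only.

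The members, gene lists and comparisons were chosen with earlier results of these data known. Named were all members, other family genes with at least 10 TPM, and in each list of related genes the 2 genes with the largest difference in either medium comparison, plus Nfe2l2, Keap1, Gclc, Gclm, Gsr and Nqo1. Likeness named the 3 highest correlations. Marker lists were given as sums and counts, with Dppa5a, Lin28a, Fbln1, Thy1, Gata4, Krt5 and Krt14 named to describe them. Mafg was named after its values were seen. Alternatives were a pseudocount of 0.1, a minimum of 5 TPM, no minimum, median-ratio rescaling, deposited FPKM and expected counts as CPM. Scripts were tested on simulated data. Python 3.11.15, pandas 2.3.3, numpy 2.4.6 and scipy 1.17.1 were used. Positions of genes and coding bases are from GENCODE M21, and those of promoters from RefSeq.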

Additional observations from a re-analysis of the deposited data

Results flagged for a closer look

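For 3 members the difference between 5C and mES medium had opposite signs in the sorted fractions, with each counting interval off 1. Mgst3 was higher in 5C medium among Oct4GFP+ cells (2.50 on the log2(TPM + 1) scale) and lower among Oct4GFP- cells (-1.17), 3.67 apart. Gsto1 was at 2.19 and -1.33, 3.52 apart. Gstp1 was at 1.22 and -0.28, 1.51 apart, although its counts were shared out with Gstp2. With 1 library a group these differences between fractions were not tested.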

How the results depend on the processing

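No alternative changed a count of called members by over 1.5 times, and none reversed the sign of a called difference. Gstm1 in primed cells against R1 ESCs-primed, at -0.00, became 0.03 under rescaling, 0.03 with FPKM and 0.04 with CPM. Of 308 values recomputed for single members and the Gstp sum under the 4 alternatives that can move them (the minimum TPM cannot), 283 stayed within the counting interval and 25 moved beyond it, 14 of them under rescaling (factors of 0.889 to 1.129), 6 under CPM and 5 under FPKM. Where a library held no count of Gstt1 or Mgst1 the interval was open-ended, so these values could only be counted as within it. With a pseudocount of 0.1, Gstt1 in 5C-Oct4GFP+ against mES-Oct4GFP+ went from 2.52 to 5.59. Mgst1 in naive cells against 5C-Oct4GFP+ went from -5.37 to -8.66. The members' median difference between mES-Oct4GFP+ and mES-Oct4GFP- moved from -1.70 to -2.49 with a pseudocount of 0.1, -1.15 with a minimum of 5 TPM, -1.27 with FPKM and -1.26 with CPM. Between 5C-Oct4GFP+ and 5C-Oct4GFP- it moved from -0.48 to -0.26 under rescaling, and between naive cells and 5C-Oct4GFP+ from -1.39 to -1.18 with a minimum of 5 TPM. The cause was not tested. Leaving out a replicate was not possible, since each group had 1 library. No paired analysis was possible because the result comes from no test and no group has a second replicate. Depth limits Gstt1 and Mgst1 in mES-Oct4GFP+ and naive cells, which held 1 count or none, and the split of reads between Gstp1 and Gstp2 limits each copy.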
